A study of Mus musculus with 8 samples.

Results

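Cabp2, A330044P14Rik, Wdfy1, Entpd4 and Entpd4b were picked out of the 56748 genes in the count table of mouse skin by gene name. They are 5 genes that had 0 counts in every wild-type library but not in NPY-tet libraries, or that showed a step between genotypes or in a single library and are known or suspected to vary in copy number. They were thus chosen by their counts in the same 8 libraries and the same contrast as the values below, so the levels of the 5 genes are a description and carry no test. The working name for the set was on-off genes of possible strain origin. By their counts Cabp2 and A330044P14Rik were on-off genes, and the other 3 were not. Wdfy1 and Entpd4b were detected in all 8 libraries, and Entpd4 was near 0 in both genotypes. Strain origin was not tested, since a table of read counts holds no sequence differences.

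Messenger RNA was sequenced from whole skin of male mice aged 35 weeks. The NPY-tet group was 3 mice of the strain B6;129S4-Npytm2Rpa/J, homozygous for a tet allele of Npy (NPY tet/tet), and the wild-type group was 5 of their siblings (NPY +/+). The labels give no treatment for either group, do not say which promoter drives the allele, and for some libraries give differing mouse numbers in different fields, with the same genotype. The strain name denotes a mixed background of C57BL/6 and 129S4, so siblings can differ at loci other than Npy. Whole skin mixes epidermis, dermis, fat, muscle and hair follicles, so fewer cells of a type and less RNA per cell cannot be told apart.

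Library totals ran from 31370433 to 47495565 counts. Of the 56748 genes, 32480 had at least 1 count and 18495 passed the filter on low counts. Levels are given as CPM, counts per 1000000 counts of the library, scaled with edgeR's TMM factors. Ribosomal RNA split the libraries in a way the genotypes do not explain. The rRNA-rich set, wild-type replicates 1, 2, 3 and 5 with NPY-tet replicate 1, had 6.54% to 8.13% of its counts in ribosomal RNA genes. The rRNA-poor set, made up of the remaining 3 libraries, had 0.0398% to 0.0759%. Npy, which encodes the neuropeptide, had a mean of 0.237 ± 0.148 CPM (SD, n = 5) among the wild-type mice and of 308 ± 11.6 CPM (SD, n = 3) among the mutants. In edgeR's quasi-likelihood test with Benjamini-Hochberg adjustment Npy was the only gene with an adjusted p under 0.05, which is 0.00541% of the genes tested. The skin markers Krt5, Krt10, Col1a1 and Dcn were present in every library, but not at even levels. Across the libraries the collagen gene Col1a1 ran from 16427 to 347580 counts, and Dcn from 31892 to 56283 counts.

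Cabp2 encodes a calcium-binding protein of the calmodulin superfamily that tunes voltage-gated calcium channels of the Cav1 type and is best known from inner ear hair cells and the retina. Wdfy1 encodes a protein with WD repeats and a FYVE domain, which binds phosphatidylinositol 3-phosphate on early endosomes; in mouse cells it brings the adaptor TRIF to Toll-like receptors TLR3 and TLR4. Entpd4 and Entpd4b are a pair of genes for the nucleoside diphosphatase of the Golgi and lysosome, which splits UDP left over from glycosylation. A330044P14Rik is annotated as a transcribed unprocessed pseudogene, and no function is given for it. Inbred mouse strains are known to differ in the number of copies of many genes, and the reference genome comes from one of them, C57BL/6J.

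The 5 genes lie on 4 chromosomes, and 1 of them shares a chromosome with Npy. In the mm39 build, Npy (ENSMUSG00000029819) spans chr6:49799690-49806487 on the plus strand. A330044P14Rik (ENSMUSG00000093385) spans chr6:123911385-123959132 on the minus strand and starts 74.1 Mb from the start of Npy. Cabp2 (ENSMUSG00000024857) spans chr19:4131578-4137340 on the plus strand. Wdfy1 (ENSMUSG00000073643) spans chr1:79679979-79753860 on the minus strand. Entpd4 (ENSMUSG00000095463) spans chr14:69574623-69604719 and Entpd4b (ENSMUSG00000022066) spans chr14:69792873-69822969, both on the plus strand. The counts are for the annotated exons of each gene, which add up to 1350 bases for Cabp2, 3575 for A330044P14Rik, 6488 for Wdfy1 and 8074 for each of Entpd4 and Entpd4b. The filter on low counts passed 4 of the 5 genes and left out Entpd4; Cabp2 and A330044P14Rik passed through the NPY-tet libraries alone.

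Entpd4 and Entpd4b cannot be separated by their transcript sequences in the reference, which bears on every value of the pair. In GENCODE M21 (GRCm38) all 5 annotated transcripts of Entpd4b have a partner among the 6 of Entpd4 with the same sequence. The paired transcripts are 418, 989, 2623, 2946 and 3589 bases long and have 0 mismatches, and in each pair every exon lies 218250 bases from its partner. The remaining transcript of Entpd4, of 1842 bases, has no partner. Exon 3 of the 13 exons of the 3589-base transcripts is shown as an example, since it is coding throughout in Entpd4; the sequences are on the plus strand of GRCm38, and no letter is in capitals because no base differs.
Entpd4 exon 3, chr14:69349073-69349270: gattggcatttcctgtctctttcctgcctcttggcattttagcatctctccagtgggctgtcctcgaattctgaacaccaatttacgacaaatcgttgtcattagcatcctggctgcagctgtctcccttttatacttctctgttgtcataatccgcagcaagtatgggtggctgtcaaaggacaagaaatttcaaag
Entpd4b exon 3, chr14:69567323-69567520: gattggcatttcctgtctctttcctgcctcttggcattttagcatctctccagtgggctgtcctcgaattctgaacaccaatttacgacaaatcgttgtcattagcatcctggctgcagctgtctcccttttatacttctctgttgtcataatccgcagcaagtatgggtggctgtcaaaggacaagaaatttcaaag
A read that lies within these transcripts therefore matches both genes equally well. Only transcripts of GRCm38 were compared, and not introns, flanking sequence or the mm39 build used for the counts. All 8206 windows of 50 bases from the transcripts of one gene were found in the other, and so were all 8304 windows of 100 bases.

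Wdfy1 holds a duplication within the gene. The reference annotates 4 transcripts of the same 4551 bases in 12 exons, and exons 4, 5 and 6 exist in a pair of identical copies that lie 7442 bases apart. The 3 exons add up to 319 bases, all of them coding. They are shown because the copy used cannot be read from a transcript; the sequences are those of the minus strand of GRCm38, 5′ to 3′, with 0 mismatches between the copies and so with none in capitals.
Wdfy1 exon 4, chr1:79729656-79729710 and chr1:79722214-79722268: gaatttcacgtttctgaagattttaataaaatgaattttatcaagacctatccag
Wdfy1 exon 5, chr1:79726566-79726716 and chr1:79719124-79719274: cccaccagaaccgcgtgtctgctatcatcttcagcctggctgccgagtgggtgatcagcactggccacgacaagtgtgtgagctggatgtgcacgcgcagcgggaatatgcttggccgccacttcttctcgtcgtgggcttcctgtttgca
Wdfy1 exon 6, chr1:79724645-79724757 and chr1:79717203-79717315: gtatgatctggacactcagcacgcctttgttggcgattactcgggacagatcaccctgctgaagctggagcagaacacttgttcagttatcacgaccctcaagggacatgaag
A read that lies within these exons matches both copies, so whether it was counted depends on how reads with several matches were handled, which is not given in the sources used here. The counts do not show how many copies the mice carry.

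The other genes had sequence of their own. Of the 1386 windows of 50 bases in the transcripts of Cabp2, 0 occurred in the transcripts of another gene, and of the 1436 windows of 100 bases 0 did. For A330044P14Rik 391 of 3571 windows of 50 bases (10.9%) were shared with 96 other genes, and 1.09% of windows of 100 bases were. For Wdfy1 94 of 5669 windows of 50 bases (1.66%) were shared, 77 of them with Mrpl44, the mitochondrial ribosomal protein gene whose 5′ end overlaps that of Wdfy1 on the opposite strand.

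**Figure D1:**
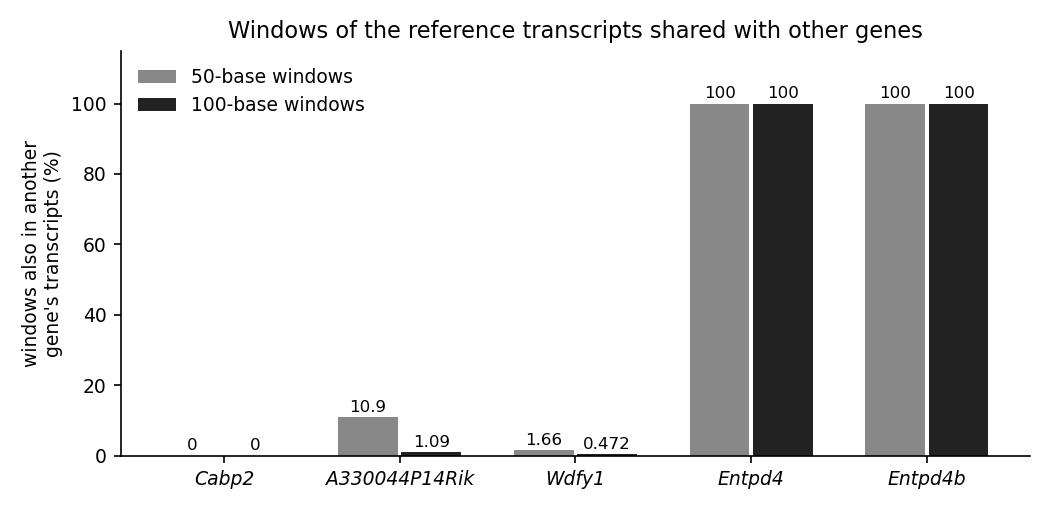
Share of 50-base and 100-base windows in the reference transcripts of each gene that also occur in transcripts of another gene, in percent. Entpd4 and Entpd4b stand at 100 because each repeats the other, and Cabp2 stands at 0.

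Cabp2 had no counts in wild-type skin and was present at a low level in every NPY-tet mouse. It had 0 counts in each of the 5 wild-type libraries and 48, 34 and 55 counts in NPY-tet replicates 1, 2 and 3. The level in NPY-tet skin was 1.24, 0.921 and 1.59 CPM, a mean of 1.25 ± 0.332 CPM (SD, n = 3), or 0.913 ± 0.245 FPKM, the unit that also divides by the length of the exons. The rRNA-rich and the rRNA-poor NPY-tet libraries both held it, and the groups did not overlap. A limit of 3 counts over the 5 wild-type libraries is 0.0166 CPM, against which the NPY-tet mean was at least 75.2-fold higher; the limit covers counting error only.

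A330044P14Rik showed the same pattern at a lower level. It had 0 counts in each wild-type library and 23, 14 and 19 counts in NPY-tet replicates 1, 2 and 3. These are 0.592, 0.379 and 0.548 CPM, a mean of 0.507 ± 0.112 CPM (SD, n = 3), or 0.140 ± 0.0312 FPKM. The mean was at least 30.5-fold above the same limit. Per kilobase, then, the level of this pseudogene was below that of Cabp2 in every NPY-tet library, with 0.164, 0.105 and 0.152 FPKM against 0.905, 0.673 and 1.16 FPKM. Both genes were lowest in NPY-tet replicate 2.

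Over the whole table, Cabp2 and A330044P14Rik were the 2 genes with 0 counts in all wild-type libraries and at least 5 counts in every NPY-tet library, which is 0.00616% of the 32480 genes with a count. In the opposite direction the number was 0. This is the rule's own contrast and is given as a description. The genes just outside that limit were the adhesion receptor gene Adgrb3, with 8, 7 and 3 counts in NPY-tet replicates 1, 2 and 3, and the long non-coding RNA genes 1700010G06Rik with 4, 5 and 3 and 1700064M15Rik with 3, 3 and 3. With at least 1 count required instead, 71 genes were on in NPY-tet and off in wild-type and 6 the other way round. With fewer libraries in NPY-tet than in wild-type, the opposite pattern needs counts in 5 libraries rather than 3, so these numbers are not comparable between directions.

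Wdfy1 was expressed in every library and was higher in NPY-tet skin, without an on-off step. Wild-type replicates 1 to 5 had 209, 305, 171, 330 and 246 counts, or 6.63, 7.72, 5.73, 6.60 and 8.23 CPM. NPY-tet replicates 1, 2 and 3 had 762, 340 and 541 counts, or 19.6, 9.21 and 15.6 CPM. NPY-tet replicate 2 lay closest to the wild-type range, at 1.12 times the highest wild-type library, so the groups did not overlap. The means were 6.98 ± 0.991 CPM (SD, n = 5) and 14.8 ± 5.25 CPM (SD, n = 3), or 1.06 ± 0.153 and 2.26 ± 0.801 FPKM. The NPY-tet mean was 2.12-fold higher, with a fitted log2 fold change of 1.09 (SE 0.23). It was 2.77-fold higher among the rRNA-rich libraries and 1.88-fold higher among the rRNA-poor ones. Of all genes tested, 1.81% had every NPY-tet library above every wild-type library.

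The libraries do not keep strand, so reads from the 126 bases that Wdfy1 shares with Mrpl44 cannot be assigned to one of them. The mean of Mrpl44 was 30.8 ± 3.19 CPM (SD, n = 5) among the wild-type mice and 25.5 ± 4.16 CPM (SD, n = 3) among the mutants, and the groups overlapped.

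Entpd4b was low in wild-type skin and stepped up in 1 NPY-tet library far more than in the other two. Wild-type replicates 1 to 5 had 25, 34, 35, 29 and 31 counts, or 0.793, 0.861, 1.17, 0.580 and 1.04 CPM. NPY-tet replicates 1, 2 and 3 had 708, 53 and 131 counts, or 18.2, 1.44 and 3.78 CPM. NPY-tet replicate 1 stood 4.83 times above the next library, and NPY-tet replicate 2 lay 1.22 times above the highest wild-type library. The groups did not overlap, with NPY-tet above wild-type as for 1.81% of genes tested. The 3 NPY-tet libraries, however, spanned a 12.7-fold range against 2.02-fold in wild-type. The means were 0.889 ± 0.228 CPM (SD, n = 5) and 7.82 ± 9.10 CPM (SD, n = 3), so the SD of the NPY-tet group was larger than its mean. The ratio of means was 8.80, and the fitted log2 fold change of 3.14 (SE 0.69) became 1.56 without NPY-tet replicate 1. The ratio was 18.9 among the rRNA-rich libraries, where NPY-tet replicate 1 is the single mutant, and 4.50 among the rRNA-poor ones.

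A step of this kind, with 1 library at least 4 times above all others and with at least 20 counts, was found in 41 of 17905 genes (0.229%). The limits of that count were set with the values known. NPY-tet replicate 1 held 14 of the 41 steps, wild-type replicate 5 held 17, and no other library held more than 3.

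Entpd4, the identical partner, had few counts everywhere. Wild-type replicates 1 to 5 had 2, 0, 5, 4 and 3 counts and NPY-tet replicates 1, 2 and 3 had 2, 6 and 1. The groups overlapped, with totals of 14 and 9 counts. The rate in NPY-tet over wild-type was 1.05, with an exact 95% interval of 0.402 to 2.61 that covers counting error only.

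Because the paired transcripts are the same, transcript sequence gives no basis for splitting the pair, and their counts were also summed. The sum is a level of the pair only if reads that match both genes were counted, which is not known. The sum was 0.971 ± 0.268 CPM (SD, n = 5) in wild-type and 18.3, 1.60 and 3.81 CPM in NPY-tet replicates 1, 2 and 3. Entpd4 took 8.17 ± 5.05% (SD, n = 5) of the sum in wild-type libraries. It took 0.282%, 10.2% and 0.758% in NPY-tet replicates 1, 2 and 3, with exact Clopper-Pearson 95% intervals of 0.0341% to 1.01%, 3.82% to 20.8% and 0.0192% to 4.15%. All 3 shares lay within the wild-type range of 0% to 12.5%. Its low end is wild-type replicate 2, with 0 of 34 counts and an exact 95% interval of 0% to 10.3%. The remaining wild-type libraries had shares of 7.41% to 12.5%, and NPY-tet replicates 1 and 3 lay below these. Among the mutants the share was highest in NPY-tet replicate 2, which had the lowest sum. The deposited split was thus far from even in every library, although the paired transcripts are the same. How the aligner placed reads that match both genes was not given in the sources used here, and its part in these shares was not tested.

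Both genes of the pair overlap others on the opposite strand. Gm16867 overlaps Entpd4 by 3767 bases and had 12 to 28 counts in wild-type and 37, 21 and 1 in the NPY-tet libraries. Gm27177 overlaps Entpd4b by 3357 bases and had 1 to 3 counts in wild-type and 9, 2 and 1 in NPY-tet. Both were highest in NPY-tet replicate 1, as was Entpd4b, but Gm16867 hardly so, at 0.953 CPM against 0.936 CPM in wild-type replicate 5. Their counts cannot be told apart from those of the pair where they overlap.

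**Figure D2:**
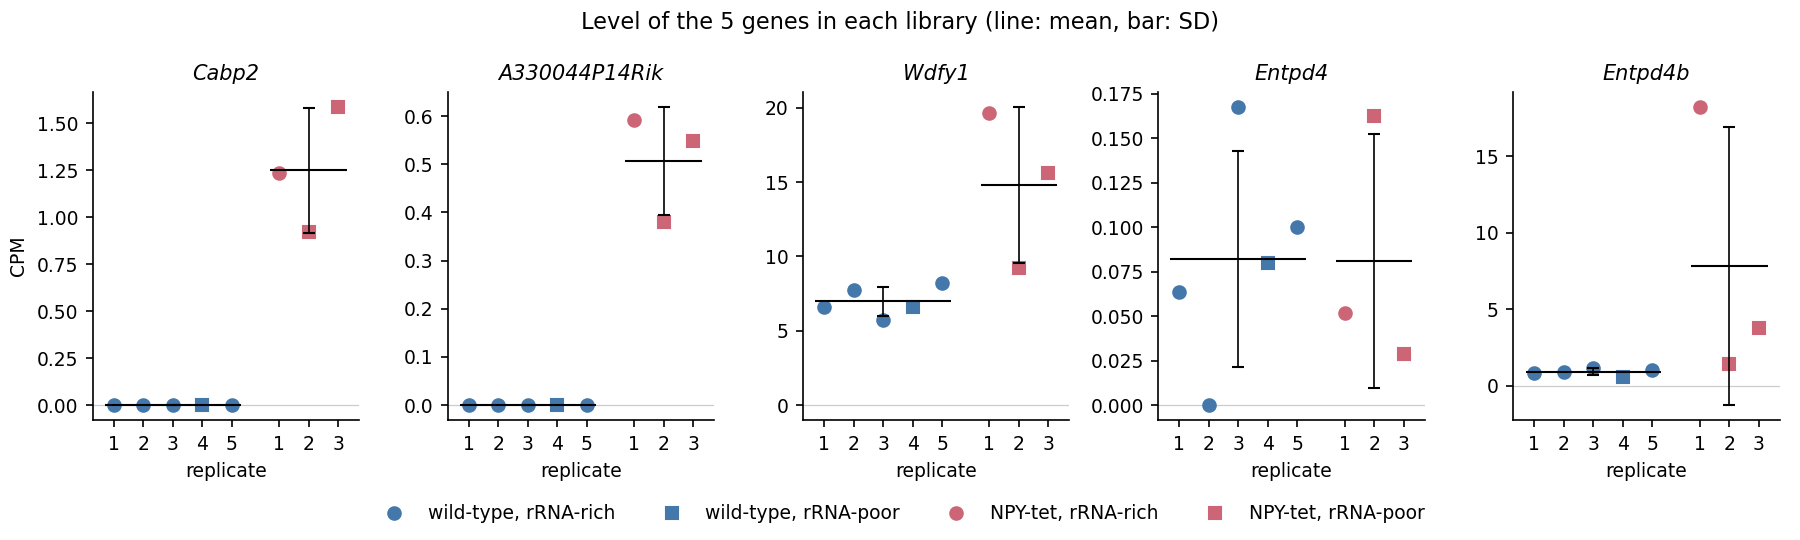
Level of each of the 5 genes in CPM by library, wild-type in blue and NPY-tet in red, with circles for rRNA-rich and squares for rRNA-poor libraries; the line is the group mean and the bar its SD. Cabp2 and A330044P14Rik lie at 0 in the 5 wild-type libraries, Wdfy1 shifts about 2.12-fold, Entpd4 overlaps, and Entpd4b is led by NPY-tet replicate 1.

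Per kilobase the order in NPY-tet skin was Wdfy1 at 2.26 FPKM, then Entpd4b at 0.956, Cabp2 at 0.913, A330044P14Rik at 0.140 and Entpd4 at 0.00990 FPKM. The places of Entpd4 and Entpd4b here and below are those of the deposited values. Their identical transcripts and the unknown handling of shared reads leave the true levels of these genes uncertain. Wdfy1 was above Entpd4b in each NPY-tet library, with 2.99, 1.40 and 2.38 FPKM against 2.23, 0.175 and 0.463 FPKM. Entpd4b was above Cabp2 in NPY-tet replicate 1 and below it in replicates 2 and 3, so these neighbours in the order did not separate. In wild-type skin the order was Wdfy1 at 1.06, Entpd4b at 0.109 and Entpd4 at 0.0101 FPKM, with the remaining genes at 0.

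None of the genes around the 5 members passed a test. Each member's 5 nearest tested genes on either side make 42 distinct genes, of which 0 passed in edgeR's test over all genes and 0 in DESeq2. At an unadjusted p under 0.05 there were 5 of 42 (11.9%), against 5.98% of all genes. Of the 5, 2 were higher in NPY-tet skin and 3 lower, and among all genes these shares were 2.43% and 3.55%. The median log2 fold change of the 42 genes was -0.13 against 0.00 over all genes tested. The 10 genes around Cabp2 held 0 of the 5. They include its relative Cabp4, which starts 53.8 kb from the start of Cabp2. Cabp4 had a mean of 0.553 ± 0.378 CPM (SD, n = 5) among the wild-type and 0.698 ± 0.0218 CPM (SD, n = 3) among the NPY-tet mice, with overlapping groups.

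Around A330044P14Rik the median was -0.37 and 3 of 10 genes had an unadjusted p under 0.05. Clec4b1, a C-type lectin of myeloid cells, stood at 3.17 ± 0.800 and 1.74 ± 0.350 CPM (log2 fold change -0.87, SE 0.29, edgeR adjusted p 0.724). Every NPY-tet library lay below every wild-type library, as for 1.98% of genes tested. Cd163, the haptoglobin-haemoglobin scavenger receptor of macrophages, stood at 57.2 ± 17.1 and 94.2 ± 23.3 CPM (log2 fold change 0.72, SE 0.24, edgeR adjusted p 0.727). C1ra, a protease of the complement cascade, stood at 107 ± 18.2 and 80.4 ± 17.6 CPM (log2 fold change -0.41, SE 0.17, edgeR adjusted p 0.795).

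Near Wdfy1, Serpine2, which encodes a serine protease inhibitor, stood at 101 ± 19.1 and 73.1 ± 23.0 CPM (log2 fold change -0.47, SE 0.21, edgeR adjusted p 0.795). Ap1s3, the nearest tested gene on the other side, stood at 7.78 ± 0.912 and 7.24 ± 1.21 CPM. Near Entpd4 and Entpd4b, Stc1, which encodes the hormone stanniocalcin, stood at 0.901 ± 0.425 and 1.87 ± 0.798 CPM (log2 fold change 1.06, SE 0.46, edgeR adjusted p 0.795). Loxl2, a collagen crosslinking enzyme gene that starts 53.6 kb from the start of Entpd4b, had 15.8 CPM in NPY-tet replicate 1 against 48.9 and 50.7 CPM in the other NPY-tet libraries and 35.4 to 54.9 CPM in wild-type. The library in which Entpd4b was highest was thus the lowest of the 8 for Loxl2. Matrix genes on other chromosomes also varied widely across the 8 libraries, with Col1a1 at 63.7 to 1511 FPKM and Col3a1 at 35.6 to 538 FPKM. For both of these collagen genes, too, NPY-tet replicate 1 was the lowest library. Whether the low Loxl2 value is particular to this region was not tested.

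**Figure D3:**
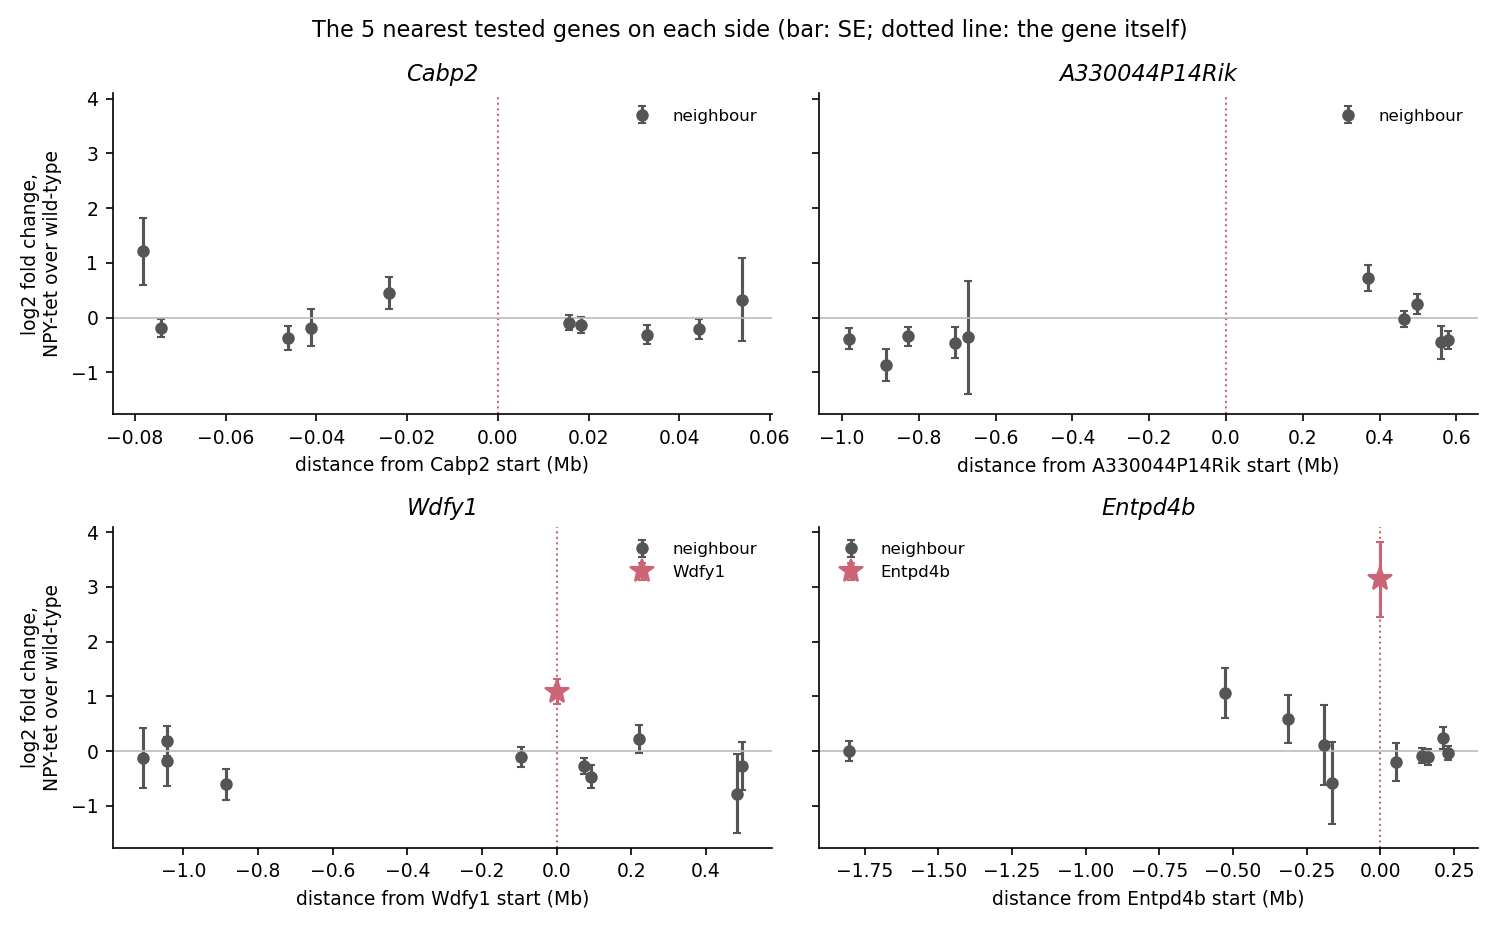
Fitted log2 fold change, NPY-tet over wild-type, of the 5 nearest tested genes on each side of Cabp2, A330044P14Rik, Wdfy1 and Entpd4b, against distance in Mb; bars are SE, stars are Wdfy1 at 1.09 and Entpd4b at 3.14, and dotted lines mark the genes themselves. No star is drawn for the genes at 0 in wild-type, and no neighbour passed the adjusted threshold.

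On chromosome 6 no gene other than Npy passed in edgeR. Of the 136 tested genes that start within 10 Mb of Npy, other than Npy, 0 passed in edgeR and in DESeq2, 9 had an unadjusted p under 0.05 (6.62%) and the median log2 fold change was -0.04. Within 5 Mb the numbers were 0 of 87 called and 6.90% at an unadjusted p under 0.05, and within 20 Mb 0 of 258 and 7.75%. Of the 216 tested genes within 10 Mb of A330044P14Rik, 0 passed in edgeR and 16 (7.41%) had an unadjusted p under 0.05. DESeq2 called 1 of these, Gdf3, a growth factor of the TGF-beta family with means of 0.635 ± 0.511 CPM (SD, n = 5) for wild-type and 0.0343 ± 0.0595 CPM (SD, n = 3) for NPY-tet (DESeq2 adjusted p 0.0300, edgeR adjusted p 0.549). Over all genes DESeq2 called 61 of 20905 (0.292%). Of the 986 other tested genes of the chromosome 63 (6.39%) had an unadjusted p under 0.05, against 5.98% over all genes.

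**Figure D4:**
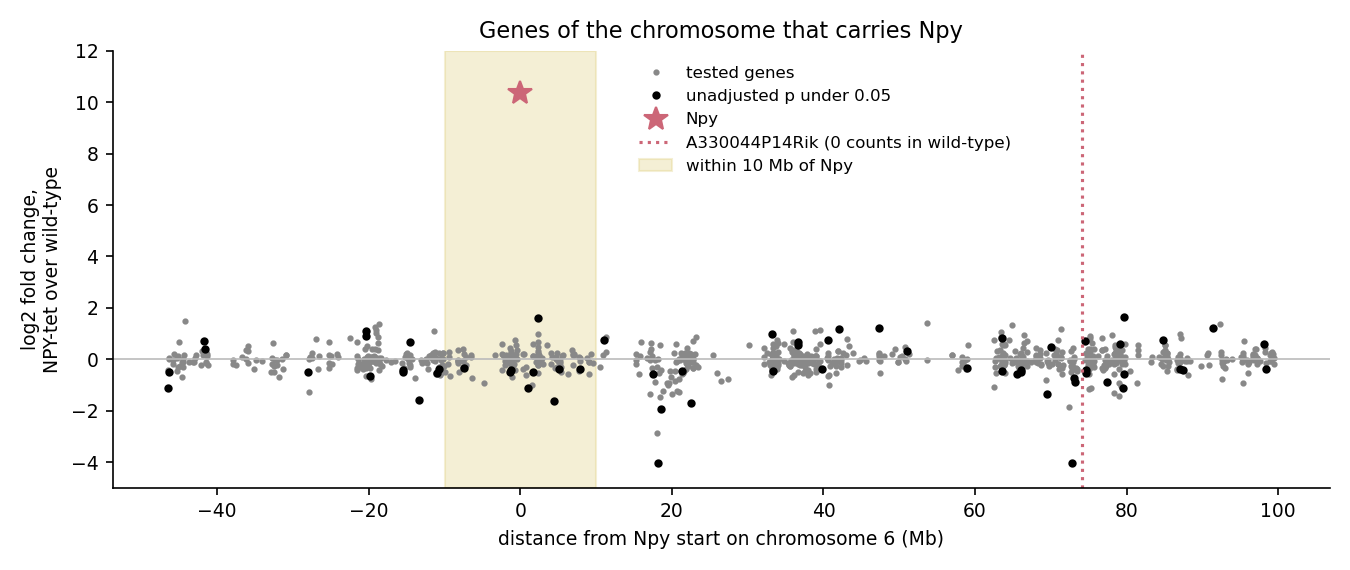
Fitted log2 fold change of every tested gene on chromosome 6 against distance from the start of Npy in Mb; the shaded band is 10 Mb to each side, the star is Npy at 10.37, black points have an unadjusted p under 0.05 and the dotted line marks A330044P14Rik at 74.1 Mb. Neither the band nor the region of the dotted line holds a gene that passed in edgeR, apart from Npy.

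Most relatives of Cabp2 were detected in skin of both genotypes, and none passed the test. Of the 15 genes listed from the CaBP and calmodulin family and the Cav1 channels, 12 other than Cabp2 were tested, 0 passed, and the median log2 fold change was -0.15. Cabp1 stood at 0.123 and 0.166 FPKM in wild-type and NPY-tet skin, Cabp7 at 0.170 and 0.122 FPKM, and Cabp5 had 0 counts in all 8 libraries. The calmodulin gene Calm3 had the smallest p of the list (268 ± 32.4 and 193 ± 65.8 CPM, log2 fold change -0.47, edgeR adjusted p 0.795). Cacna1d, which encodes the Cav1.3 channel that Cabp2 modulates in hair cells, stood at 1.92 and 2.20 CPM. Among hair cell and retina markers examined beside Cabp2, Pou4f3 and Slc26a5 had at most 1 count in any library, Slc17a8 had 0 to 9 counts, Gnat1 1 to 18 and Otof 6 to 24. Otof stood at 0.519 ± 0.199 and 0.458 ± 0.154 CPM and Myo7a at 15.2 ± 4.12 and 14.5 ± 2.27 CPM, with overlapping groups.

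No gene of the list around Wdfy1 passed either. Of 20 other genes of the WDFY family and the FYVE-domain endosomal machinery, 0 were called and the median was 0.00. Wdfy2 stood at 5.53 and 5.29 FPKM and Wdfy3 at 5.92 and 5.82 FPKM. Wdfy4, which serves antigen cross-presentation in dendritic cells, stood at 20.4 ± 2.83 and 13.3 ± 3.01 CPM (log2 fold change -0.62, SE 0.18, edgeR adjusted p 0.594), with every NPY-tet library below every wild-type library, a pattern found in 1.98% of genes tested. Of 16 tested genes of TLR3 and TLR4 signalling through TRIF, 0 passed and the median was 0.06. Tlr3 stood at 7.40 ± 0.220 and 7.05 ± 0.705 CPM, and Ticam1, which encodes TRIF, at 17.4 ± 3.24 and 17.3 ± 1.03 CPM. Irf7, an interferon-induced transcription factor, was the exception in that list, at 22.7 ± 9.39 and 8.84 ± 2.70 CPM (log2 fold change -1.36, SE 0.34). Its adjusted p was 0.549 by edgeR and 0.00687 by DESeq2, and every NPY-tet library lay below every wild-type library.

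Among 16 other tested ENTPD genes and nucleotidases 0 passed, and the median was -0.02. Entpd5, the UDP-hydrolysing enzyme of the endoplasmic reticulum, stood at 58.6 ± 1.91 and 59.8 ± 2.15 CPM, and Entpd1, the CD39 ectonucleotidase, at 31.4 ± 2.17 and 31.1 ± 5.02 CPM. P2ry6, the receptor for UDP, stood at 14.4 ± 1.65 and 9.70 ± 2.54 CPM (log2 fold change -0.57, edgeR adjusted p 0.724), with overlapping groups. Of 7 genes at which laboratory strains carry documented alleles, 0 passed and the median was 0.22. Casp4, an inflammatory caspase gene defective in some mouse strains, stood at 6.65 ± 0.983 and 9.69 ± 1.38 CPM (log2 fold change 0.54, SE 0.18, edgeR adjusted p 0.724). Every NPY-tet library lay above every wild-type library, as for 1.81% of genes tested. Nnt, the mitochondrial transhydrogenase gene that carries a deletion in C57BL/6J, had 3 to 15 counts in each of the 8 libraries.

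**Figure D5:**
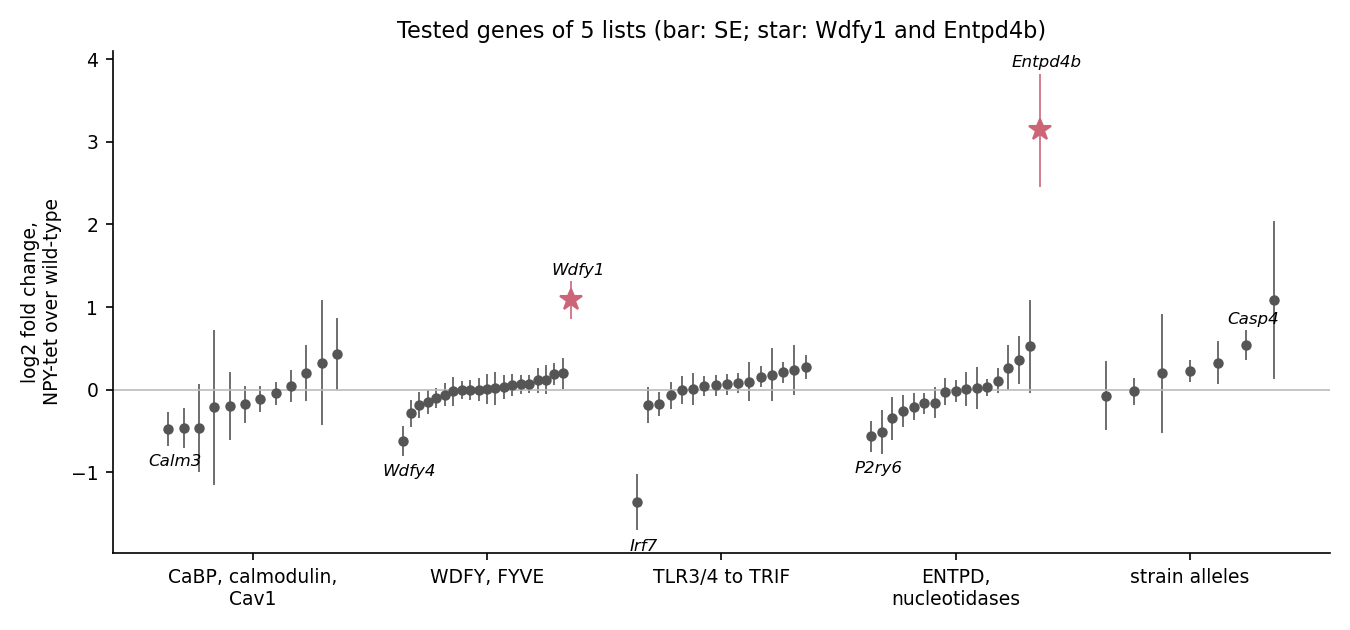
Fitted log2 fold change with SE of the tested genes in 5 lists, ordered by value within each; stars are Wdfy1 and Entpd4b, and the other named genes have an unadjusted p under 0.05. Cabp2 is left off because it had 0 counts in wild-type. None of the non-members passed in edgeR.

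Across the 8 libraries, the genes most like Cabp2 in log2 CPM were Npy, the peroxisomal oxidase gene Acox3, the neuronal pentraxin gene Nptx2, Gstm5 and Ubxn11. Pearson's r with Npy was 0.992 for Cabp2 and 0.992 for A330044P14Rik, whose nearest genes were Npy, Acox3, Nptx2, Gstm5 and Zfp329. These values rest on the 2 groups, since a gene that is at 0 in 1 group separates them by itself. Wdfy1 was closest to Zfp12 (r = 0.955), Shank3, Spen, Ctla2a and Gm31583. Entpd4b was closest to the long non-coding RNA gene ENSMUSG00000121069 (r = 0.960), Ctla2a (r = 0.958), Col28a1, Slc25a34 and Pvr. Ctla2a, a cysteine protease inhibitor gene named for both, had means of 15.7 CPM for wild-type and 67.4 CPM for NPY-tet. It did not pass in edgeR, and it was picked by its likeness to genes chosen for a step between the same libraries. These correlations were computed over 15020 genes, all on the same 8 libraries, which differ in depth and rRNA content, and are given as a description.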

How the data were processed

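Whole-skin messenger RNA libraries of 5 wild-type and 3 NPY-tet mice were analysed. Per the submitters' processing notes, HISAT2 2.0.5, featureCounts 1.5.0-p3 and the mm39 build were used; how reads with several matches were handled is not given in the sources used here. The authors deposited whole-number counts per gene and FPKM values, which are counts divided by gene length and library size. Per the labels, libraries were non-directional. Genes were filtered with filterByExpr and tested in edgeR 4.0.16 (TMM, robust quasi-likelihood F-test, two-sided, Benjamini-Hochberg threshold 0.05) under R 4.3.3; steps were tested on simulated data. Alternatives were DESeq2 1.42.0, limma 3.58.1 on log2 FPKM (pseudocounts 1 and 0.1), other size factors and filters, a replicate block, an rRNA covariate and each library left out. CPM use TMM-scaled library sizes. Sequences came from GENCODE M21. The 5 genes and all gene lists were chosen with earlier results of these data known. Named genes were Npy, the members, their nearest 5 tested genes on each side, list members, and the 5 genes of highest correlation; Gdf3, Loxl2 per library and the genes just outside the on-off limit were named after their values were seen. Some markers of the inner ear and retina list are not reported here.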

Additional observations from a re-analysis of the deposited data

Results flagged for a closer look

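Npy in wild-type skin was flagged for a library far from the others of its group. Wild-type replicate 5 had 15 counts (0.502 CPM) against 5 to 9 counts in the other wild-type libraries (0.159 to 0.180 CPM). The gap to the next library was 0.938 of the group's range. The limit used to mark such a library is passed by chance in about 1 group in 20, and 5 groups were examined. All wild-type values lie far below the lowest NPY-tet library, at 10394 counts.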

How the results depend on the processing

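The number of genes called, 1 in the main test, was 2 with library totals only, 21 without a filter on low counts, 61 by DESeq2, 2 by limma on log2(FPKM + 1), 2 by limma on log2(FPKM + 0.1), and 11 with the rRNA set as a covariate; the cause was not tested. It was 1 to 8 with 1 library left out, and 8 only without NPY-tet replicate 3. With the replicate number as a block it was 1, and 2 on the same 6 libraries without the block, added after seeing the data. Deviations from the group mean, compared across genes, correlated at -0.04, -0.11 and 0.30 between same-numbered libraries. Between differently numbered ones they correlated at -0.23 to 0.12. These values do not settle whether the numbers pair the mice. The 5 lists were counted here without the members. These lists, the members' neighbours and the genes within 10 Mb of Npy gained no call, except that DESeq2 called 1 gene (Irf7) in the TLR list. DESeq2 also called Gdf3 near A330044P14Rik. At a limit of 1 count the on-off numbers were 71 and 6. The log2 fold change of Wdfy1 was 0.63 by limma with pseudocount 1, and 0.83 to 1.33 with 1 library left out. That of Entpd4b was 0.68 and 1.78 by limma with pseudocounts 1 and 0.1, and 1.56 to 3.64 with 1 library left out. The least fold was 54.4 to 85.0 for Cabp2 and 22.1 to 34.4 for A330044P14Rik, lowest without wild-type replicate 4, the deepest control. With 14 to 55 counts per library for the on-off genes, counting error limits their levels.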
